A study of Mus musculus with 9 samples.

Results

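The eIF4 factors bring the small ribosomal subunit to the capped end of an mRNA. The 10 genes described here are Eif4g1, Eif4g2, Eif4g3, Eif4e, Eif4e2, Eif4ebp1, Eif4ebp2, Eif4a1, Eif4a2 and Eif4b. They were taken by gene symbol from a count table of 55487 genes, and all 10 passed the filter on low counts that left 16955 genes for testing. The list was drawn up with results of the same libraries known, and Eif4g3 entered it because of its large differences between groups. Their differences between groups are therefore given as a description, without p-values. Where a member is said below to pass, miss or lose the call threshold (adjusted p under 0.05), that is part of the description. It is no independent test of the member.

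Poly-A selected RNA was sequenced from MCEC, a line of endothelial cells from mouse heart. The 9 libraries formed 3 groups of 3: MCEC of wild-type genotype (WT), MCEC with a knockdown of Zbtb46 (KD) and MCEC with enforced Zbtb46 overexpression (OE). Zbtb46 encodes a zinc finger transcription factor with a BTB domain. How the knockdown and the overexpression were made is not given in the sources used here, no library from cells with an empty vector was analysed, and nothing says whether libraries of a group came from separate cultures. The p-values below therefore measure the spread between these libraries, which may be technical. In bulk RNA, fewer cells with a transcript and less transcript per cell cannot be told apart.

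In cap-dependent initiation, eIF4E holds the cap, eIF4G is the scaffold that joins eIF4E to the helicase eIF4A and to eIF3 on the small subunit, and eIF4B stimulates the helicase. The 4E-BPs occupy the site on eIF4E that eIF4G uses, and phosphorylation by mTORC1 releases them. Eif4g1 and Eif4g3 encode scaffolds of this kind (eIF4GI and eIF4GII), whereas Eif4g2 encodes DAP5, which lacks the eIF4E-binding region. Eif4e2 encodes 4EHP, a cap-binding protein best known from translational repression.

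The short stretch by which scaffold and inhibitor compete for eIF4E is written in the coding sequence of 4 members, and it is shown because it ties Eif4g1 and Eif4g3 to Eif4ebp1 and Eif4ebp2. The sequences below were read from the GENCODE M21 annotation and its GRCm38 transcripts, 5′ to 3′ on the coding strand. Capitals mark the 7 codons of the eIF4E-binding motif, and the 12 bases on each side are in lower case.
Eif4g1: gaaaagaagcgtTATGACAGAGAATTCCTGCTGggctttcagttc
Eif4g3: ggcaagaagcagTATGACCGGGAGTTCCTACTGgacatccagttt
Eif4ebp1: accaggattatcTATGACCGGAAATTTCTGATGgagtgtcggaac
Eif4ebp2: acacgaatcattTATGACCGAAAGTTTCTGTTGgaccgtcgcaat

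The Eif4g1 stretch lies at chr16:20681209-20681253 on the plus strand, in exon 12 of 32, and its motif is codons 616 to 622. The Eif4g3 stretch lies at chr4:138156638-138156682 on the plus strand, in exon 14 of 34, with the motif at codons 802 to 808. The Eif4ebp1 stretch lies at chr8:27273325-27273369 on the plus strand, in exon 2 of 3 (codons 53 to 59), and that of Eif4ebp2 at chr10:61435057-61435101 on the minus strand, in exon 3 of 4 (codons 54 to 60). Of the 45 bases, the scaffold genes shared 33 with each other, as did the inhibitor genes. Across the 2 kinds of gene 22 to 25 bases were identical, of which 16 of 21 lay in the motif in every pair. A strict form of the eIF4E-binding motif was searched in frame on the coding strand of 21817 genes. It was found in 5 (0.0229%): these 4 and Eif4ebp3. The 4 printed stretches match that form, so finding these genes was no test of it. A more general form of the motif was found in 5516 genes (25.3%), so the rarity depends on the form used. No match to the strict form was found in the transcript used for Eif4g2 or of the other 5 members.

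Eif4g3 (ENSMUSG00000028760, chr4:137993022-138208508, plus strand, GRCm38) differed between groups by far more than any other member. Counts scaled by TMM factors to a common library total (CPM) were 16.7, 17.1 and 16.5 in the 3 WT libraries. In KD they were 0.0993, 0.176 and 0.369, from 5, 7 and 18 reads, against 632, 1020 and 739 reads in WT. The OE libraries had 50.6, 54.3 and 50.1 CPM. Every KD library lay far below WT and every OE library above it, with no overlap between any pair of groups.

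Eif4g3 averaged 16.8 ± 0.32 CPM in WT (SD, n = 3), 0.215 ± 0.139 CPM in KD and 51.7 ± 2.27 CPM in OE. KD stood 76.8-fold below WT (log2 fold change -6.26, SE 0.45), and OE 3.08-fold above it (1.62, SE 0.039). OE stood 237-fold above KD, and the comparisons with WT share the same WT libraries. The KD value rests on few reads: without KD replicate 3, which has most of them, the log2 fold change was -6.95. Among all genes tested, 35 had a larger absolute change in KD, and 445 (2.62%) in OE. Eif4g3 overlaps Mir6399 on the same strand and 1700095J12Rik on the other, and the use of strand in counting is not given in the sources used here.

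**Figure D1:**
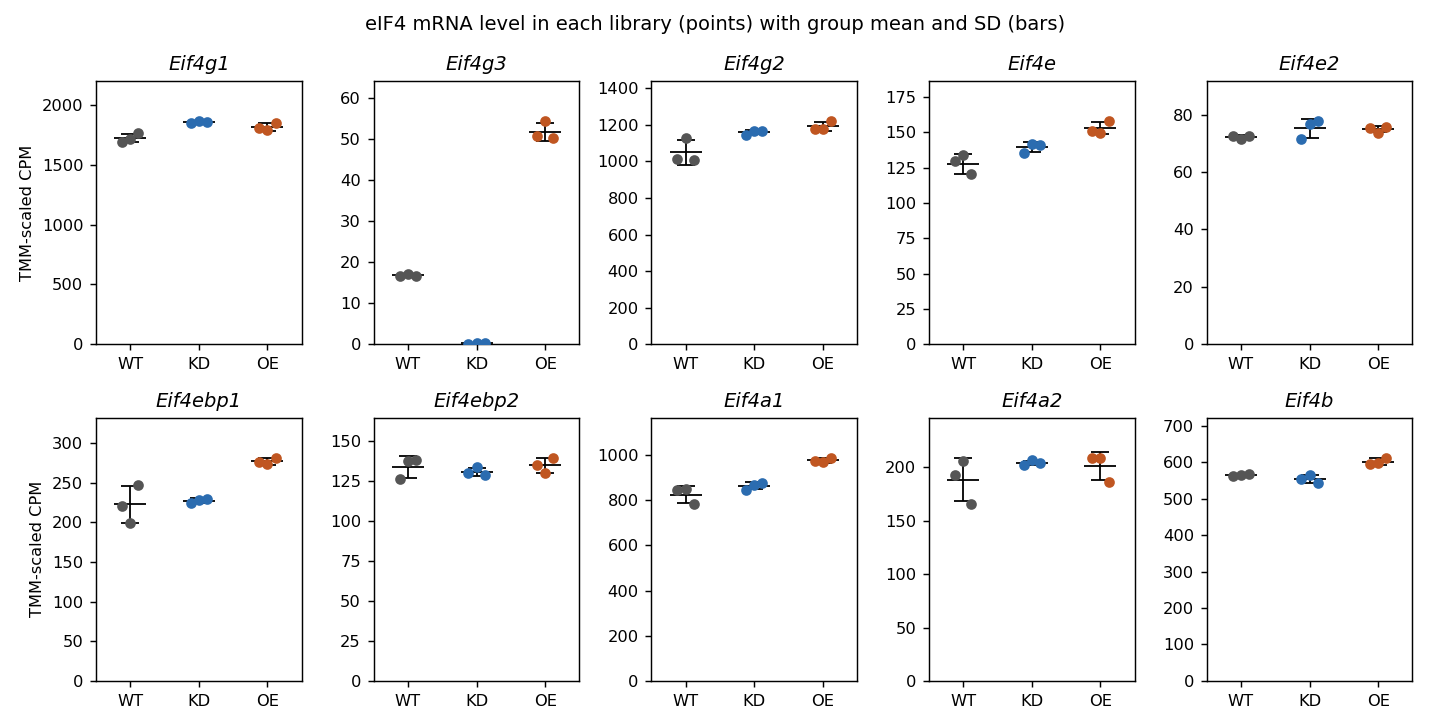
TMM-scaled CPM (vertical axes, each from 0) of the 10 eIF4 genes in each library of WT, KD and OE. Points are libraries, long bars are group means and short bars the SD (n = 3). Eif4g3 lies near 0 in KD and at 50.1 to 54.3 CPM in OE, while each other member keeps a similar level in the 3 groups.

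Eif4g1, the abundant scaffold gene, differed little between groups. Its levels were 1694, 1714 and 1763 CPM in WT, 1850, 1864 and 1860 in KD, and 1804, 1788 and 1850 in OE. All KD and OE libraries lay above all WT libraries, by a log2 fold change of 0.11 (SE 0.017) in KD and 0.07 (SE 0.022) in OE. The KD difference passed the call threshold by a small margin and lost the call under 10 of the alternatives tried, among them most that left out 1 library.

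Eif4g2, the DAP5 gene, had 1012, 1126 and 1009 CPM in WT, 1147, 1168 and 1169 in KD, and 1178, 1179 and 1220 in OE. The highest WT library lay below the lowest KD library, and all KD libraries lay below all OE libraries. Log2 fold changes were 0.15 (SE 0.053) in KD and 0.18 (SE 0.055) in OE. The KD call was lost when WT replicate 1 (0.12), KD replicate 2 (0.14) or KD replicate 3 (0.14) was left out.

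Among the cap-binding members, Eif4e had 129.5, 134 and 120.2 CPM in WT, 135, 142 and 141 in KD, and 151, 149.7 and 158 in OE. The 3 groups did not overlap and ran in the order WT, KD, OE. The log2 fold change was 0.12 (SE 0.052) in KD, which did not pass the threshold, and 0.26 (SE 0.052) in OE, which did. Eif4e2 had 72.5, 71.4 and 72.6 CPM in WT, 71.5, 76.7 and 77.7 in KD, and 75.3, 73.7 and 75.7 in OE. Its log2 fold changes, 0.06 in KD and 0.05 in OE, did not pass, although the OE libraries all lay above WT.

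The 2 inhibitor genes differed from each other in OE. Eif4ebp1 had 221, 199 and 247 CPM in WT, 224, 228.5 and 229.5 in KD, and 276, 273 and 281 in OE. All OE libraries lay above those of the other groups, by 0.32 (SE 0.09) on the log2 scale against WT, whereas the KD libraries lay within the WT range (0.03). Eif4ebp2 had 126, 138 and 138.5 CPM in WT, 130.4, 134 and 129 in KD, and 135, 130.3 and 139.6 in OE. These groups overlapped, and the log2 fold changes of Eif4ebp2 were -0.035 and 0.01.

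Eif4a1, the more abundant helicase gene, had 844, 850.3 and 782 CPM in WT, 847, 870.2 and 879 in KD, and 975, 968 and 988 in OE. OE stood apart from both other groups, with log2 fold changes of 0.24 (SE 0.039) against WT and 0.18 (SE 0.018) against KD, and KD overlapped WT (0.07). A processed copy, Eif4a-ps4, had 1825 to 2638 counts per library, so reads may have been divided between near-identical copies. Eif4a2, the paralogous helicase, had 193, 206 and 166 CPM in WT, 202, 206.5 and 204 in KD, and 209, 209 and 186 in OE. Its groups overlapped, with log2 fold changes of 0.12 (SE 0.093) and 0.09 (SE 0.11), and it shares its locus with small nucleolar RNA genes and, on the other strand, Rfc4.

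Eif4b, which stimulates the helicase, had 562, 566 and 567 CPM in WT, 554, 565 and 543 in KD, and 595, 598 and 612 in OE. The OE libraries lay above all others, but the log2 fold change against WT, 0.09 (SE 0.014), missed the threshold, while that against KD, 0.12 (SE 0.021), passed it. KD and WT overlapped (-0.03).

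**Figure D2:**
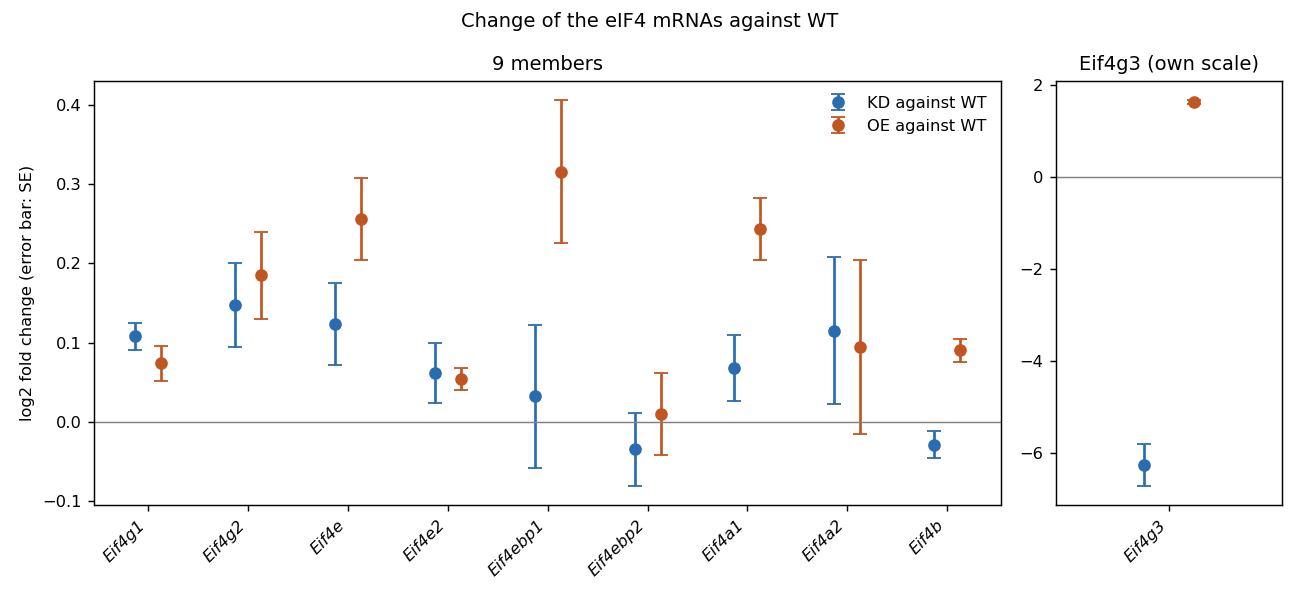
Log2 fold change against WT (vertical axis) of the 10 eIF4 genes in KD (blue) and OE (orange), with the SE as error bar; both comparisons use the same WT libraries. Eif4g3 has its own scale because its values, -6.26 and 1.62, lie far outside those of the other 9, which run from -0.035 to 0.32.

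By the edgeR quasi-likelihood call (adjusted p under 0.05 over all genes), 3 of the 10 members were called in KD against WT, 2 higher and 1 lower. The background was 21.3% of all genes called in that comparison, 11% higher and 10.4% lower. In OE against WT 5 of 10 were called, all higher, where 36.4% of all genes were called, 17% higher and 19.5% lower. In OE against KD 5 of 10 were called, all higher, where 41.5% of all genes were called and 19.4% were higher. Groups did not overlap for 4, 8 and 6 of the 10 members, where 34.7%, 45.1% and 55.4% of all genes did not. Because the members were chosen with these comparisons known, nothing is read from those counts. Without Eif4g3 the counts called were 2, 4 and 4 of 9. Median log2 fold changes of the 10 members were 0.07, 0.14 and 0.08, where the medians over all genes tested were -0.0022, 0.002 and 0.0107.

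Levels of different genes were compared per kilobase of all annotated exons, and the order of genes of similar level depends on that choice of length. In WT the order was Eif4g1 (236 CPM per kb), Eif4a1 (190.0), Eif4b (126), Eif4g2 (103), Eif4ebp1 (101), Eif4a2 (35.3), Eif4ebp2 (23.2), Eif4e (21.3), Eif4e2 (9.62) and Eif4g3 (1.52). Of neighbours in that order, the libraries of Eif4g2 and Eif4ebp1 overlapped, as did those of Eif4ebp2 and Eif4e. In KD Eif4g3 stood at 0.0194 CPM per kb and remained the lowest, and Eif4e (23.2) and Eif4ebp2 (22.6) overlapped. In OE Eif4g3 stood at 4.67 CPM per kb, still the lowest of the 10. Eif4ebp1 (126) lay above Eif4g2 (117) there, with no overlap. That order depends on the length used, 2196 bases of exon for Eif4ebp1 and 10166 for Eif4g2. With their longest transcripts, 1997 and 7995 bases, Eif4g2 would lie above Eif4ebp1.

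**Figure D3:**
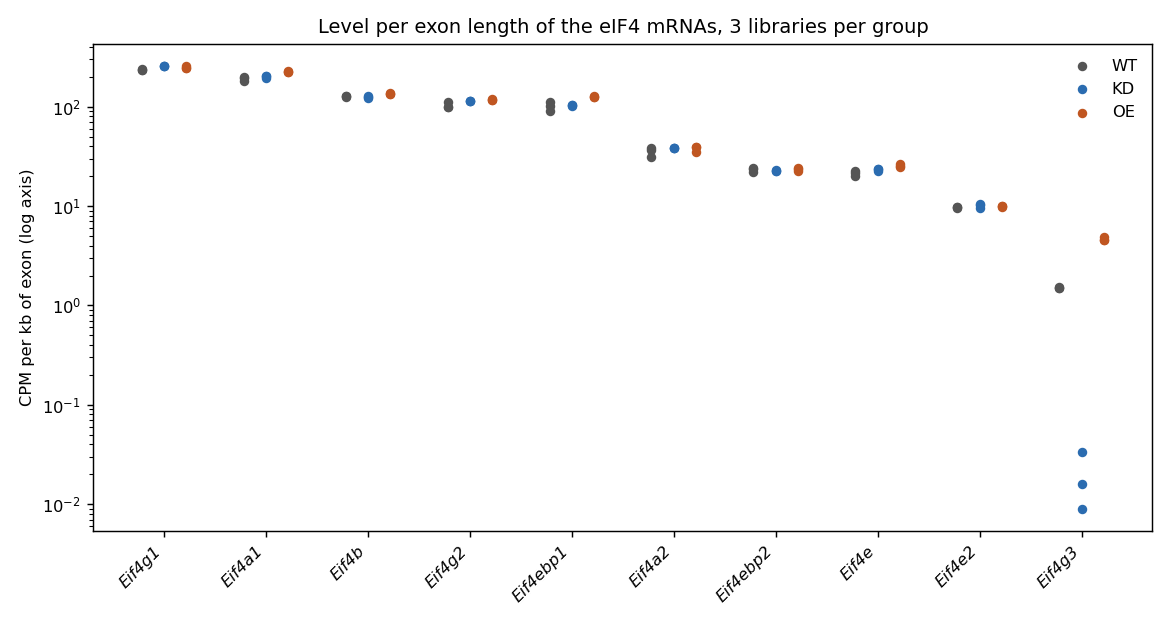
CPM per kilobase of exon (vertical axis, log scale) of the 10 eIF4 genes, ordered by their WT mean, with a point for each library of WT, KD and OE. Eif4g3 is lowest in every group, from 0.00898 to 0.0333 in the KD libraries to 4.53 to 4.91 in the OE libraries, and the other 9 genes stay within narrow bands.

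Within paralog pairs, Eif4g3 was a small part of the Eif4g1 and Eif4g3 transcripts in every group. Per kilobase it made up 0.639% ± 0.0209 of both in WT (SD, n = 3), 0.00762% ± 0.00492 in KD and 1.85% ± 0.107 in OE. Both genes together had 238 ± 4.8 CPM per kb in WT, 254.5 ± 1.03 in KD and 253 ± 4.25 in OE. Eif4g3 is so small a part of that sum that the sum follows Eif4g1 and could not follow Eif4g3. Eif4ebp1 made up 81.3% ± 1.79 of the 2 inhibitor transcripts in WT, 82.1% ± 0.335 in KD and 84.4% ± 0.273 in OE. Eif4e2 made up 31.2% ± 1.37 of the cap-binding pair in WT, 30.2% ± 0.408 in KD and 28.2% ± 0.401 in OE, and Eif4a2 15.6% ± 0.874, 16.1% ± 0.204 and 14.3% ± 0.924 of the helicase pair. With the longest transcript as length in place of all exons, the Eif4e2 share was 44.8%, 43.7% and 41.3%, and the Eif4a2 share 21.04%, 21.64% and 19.41%. Under that length 9 of the group shares moved by at least their SD and 3 did not.

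Among the genes around Eif4g3 more fell than rose in KD and more rose than fell in OE, with medians far smaller than the values of Eif4g3. Of 56 other genes that start within 1 Mb of its start, 24 were tested. In KD 9 were lower and 1 was higher, and the median was -0.22 on the log2 scale. In OE 11 were higher and 2 lower, and the median was 0.32. On all of chromosome 4, 41.1% of the 1063 tested genes were higher in OE and 8.75% lower, and in KD 6.21% were higher and 23.2% lower. Medians of 20 Mb windows in OE were between 0.27 and 0.36 from 80 Mb to the end of the chromosome and between -0.079 and 0.038 before it. In KD the same windows had medians of -0.135 to -0.18, and -0.029 to 0.13 before 80 Mb. Less the median of its own window, Eif4g3 stood at -6.08 in KD and 1.28 in OE. The part that this regional shift has in the values of Eif4g3 was not tested.

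The nearest tested gene before it, Ece1 (endothelin-converting enzyme), lies at a distance of -130.8 kb between starts and fell by 0.25 in KD (adjusted p = 0.000196, edgeR quasi-likelihood test with Benjamini-Hochberg adjustment) and had -0.098 in OE, which did not pass. Less its window median Ece1 had -0.068 in KD. The nearest after it, 2310026L22Rik, had 2 to 26 counts per library and passed no threshold. Hp1bp3, which encodes a heterochromatin protein and starts 223.3 kb after the start of Eif4g3, was added after its values were seen because it is the nearest well-counted gene on that side. It rose by 0.39 in OE (adjusted p = 7.32e-07, edgeR). In KD it had -0.13 (adjusted p = 0.0462, edgeR), a call lost in most alternatives, and 0.05 with window medians removed. The 2 largest changes near Eif4g3 in each comparison were in Fam43b and in Pla2g5, a secreted phospholipase gene. Pla2g5 had log2 fold changes of 3.31 in KD and -2.18 in OE, opposite in sign to Eif4g3. Fam43b had the same signs as Eif4g3, from few reads: 2, 10 and 12 reads in WT, 1, 0 and 0 in KD, and 56, 27 and 38 in OE. Against a floor of 3 reads per KD library, Fam43b was at least 2.49-fold higher in WT and at least 13.2-fold higher in OE.

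**Figure D4:**
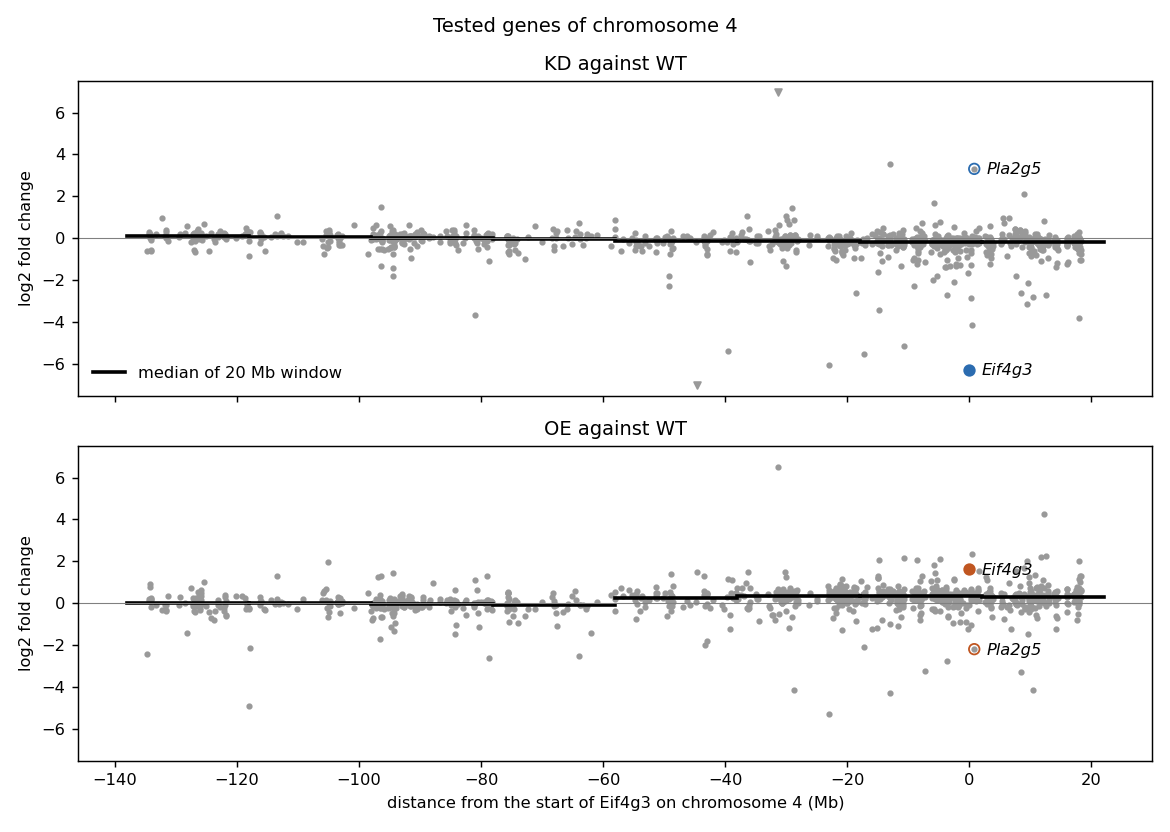
Log2 fold change (vertical axis) of the tested genes of chromosome 4 against distance from the start of Eif4g3 in Mb, for KD (top) and OE (bottom) against WT. Black lines are medians of 20 Mb windows, and triangles are genes beyond the axis. Eif4g3 lies far below its window median in KD (-0.18) and above it in OE (0.35).

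Across the 9 libraries, likeness to Eif4g3 was measured as the root mean square difference of gene-centred log2 CPM, over 9941 genes that averaged 5 CPM or more in some group and had no predicted-gene symbol. The median difference was 3.38. Among the 5 most alike were Prkd1 (protein kinase D1, 0.425), Ntn1 (netrin 1, 0.495), Tubb4a (a beta tubulin, 0.726) and Glul (glutamine synthetase, 0.776). They were picked for this pattern, so their levels are a description, and Prkd1 and Glul reached 5 CPM only in OE. Prkd1 had 0 reads in each KD library, 125, 136 and 150 in WT, and 539, 632 and 441 in OE. Tubb4a had 32.4 ± 4.04 CPM in WT, 1.06 ± 0.376 in KD and 105 ± 0.769 in OE. By the same measure, the other 9 members differed from Eif4g3 by 3.3 to 3.4, near the median over all genes. The measure is not scaled for the size of a gene's changes. Any gene with a nearly level pattern therefore lies near that median, and nothing is read from these values.

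The other genes of initiation were taken from lists chosen by function: 59 genes, of which 56 were tested. Like the members, these lists were drawn up with earlier results of these data known. Their counts and p-values, here and in the paragraphs on each list, are therefore a description and no independent test. In KD 17 of the 56 were called (30.4%), 10 higher and 7 lower, beside 21.3% of all genes. In OE 35 were called (62.5%), 26 higher and 9 lower, beside 36.4% of all genes. Median log2 fold changes were 0.02 in KD and 0.12 in OE. The lists hold abundant genes such as Eif3a (762 CPM in WT), and the background of all tested genes was not matched for expression level. The part of expression level in the called shares, here and for each list below, was not tested. The split by direction depended on scaling: the higher share of calls in KD was 58.8%, but 41.2% with upper-quartile factors and 14.3% with library totals, and in OE it was 74.3%, but 62.5% with library totals. Without KD replicate 3 the KD count was 11, and with library totals 7. Outside chromosome 4, 15 of 50 genes were called in KD and 29 of 50 in OE. These 50 still include genes of other shifted chromosomes, so leaving out chromosome 4 does not remove every regional shift. On chromosome 9, 46.3% of tested genes were lower in OE (median log2 fold change -0.285), and on chromosome 13 30.9% (-0.153).

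Genes that select the start codon and join the subunits included 10 of 14 that rose in OE and 0 that fell, where 17% and 19.5% of all genes did. In KD 6 rose and 1 fell, where 11% and 10.4% of all genes did. Eif2b3, a subunit of the exchange factor for eIF2, rose by 0.80 in OE (adjusted p = 1.28e-08, edgeR quasi-likelihood test), from 19.9 ± 0.783 to 34.6 ± 1.51 CPM. It lies on chromosome 4, in a window with a median of 0.36, and less that median it had 0.44. Eif2s2, the beta subunit of eIF2, rose by 0.35 in OE (adjusted p = 0.000319, edgeR). Eif5b, which joins the subunits, rose by 0.31 in OE and 0.21 in KD (adjusted p = 6.72e-05 and 0.00477, edgeR). Eif1b rose by 0.26 and Eif2s3x by 0.24 in KD, and both calls, like that of Eif5b in KD, were lost with library totals. Less its window median of 0.16 on chromosome 9, Eif1b had 0.096.

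Of the eIF3 subunits, which link eIF4G to the small ribosomal subunit, 7 of 14 rose and 1 fell in OE, or 57.1% beside 36.4% of all genes. In KD 1 rose and 2 fell, or 21.4%, near the 21.3% of all genes. Eif3a rose by 0.21 in KD and 0.23 in OE (adjusted p = 0.00106 and 0.000145, edgeR), and both calls were lost with library totals. Eif3i, on chromosome 4, fell by 0.25 in KD and rose by 0.46 in OE (adjusted p = 0.000502 and 7.23e-08, edgeR). Less its window medians it had -0.068 and 0.12. Eif3e rose by 0.31 in OE (adjusted p = 0.0221, edgeR), a call lost without WT replicate 2 (0.36) or OE replicate 3 (0.28). Eif3k fell by 0.18 in KD, a call lost when WT replicate 3, KD replicate 1 or KD replicate 3 was left out.

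Among partners at the cap and the poly(A) tail, 6 of 13 rose and 4 fell in OE, 76.9% beside 36.4% of all genes. In KD 2 rose and 2 fell, 30.8% beside 21.3%. Pdcd4, which holds eIF4A away from the scaffold, fell by 0.45 in KD and by 0.32 in OE (adjusted p = 0.000283 and 0.00279, edgeR). Pabpc4, a poly(A)-binding protein gene on chromosome 4, rose by 0.51 in OE (adjusted p = 4.89e-09, edgeR), or 0.17 less its window median. Paip2b, an inhibitor of poly(A)-binding protein, rose by 0.44 (adjusted p = 1.97e-05, edgeR). The RNA helicase genes Dhx29 and Ddx3x rose by 0.31 and 0.24 in KD. Less its window median of 0.16 on chromosome 13, Dhx29 had 0.15. The call of Ddx3x was lost without WT replicate 3 (0.22) and with library totals (0.20).

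Of 12 genes of the kinases and of mTORC1 signalling, 3 rose and 3 fell in OE, 50% beside 36.4% of all genes. In KD 1 rose and 2 fell, 25.0% beside 21.3%, near the background. Mtor and Mknk1, the kinase genes of mTOR and of MNK1, which phosphorylates eIF4E, rose by 0.40 and 0.43 in OE (adjusted p = 9.27e-06 and 4.25e-05, edgeR). Both are on chromosome 4, and less their window medians Mtor had 0.097 and Mknk1 0.076. Mknk1 fell by 0.29 in KD and had -0.15 less its window median there. Deptor, an inhibitor of mTOR, rose by 0.92 in OE (adjusted p = 0.00282, edgeR) from 35 to 92 reads per WT library to 95 to 138. Mknk2 fell by 0.19 in KD (adjusted p = 0.00138, edgeR), and Rheb, the activator of mTORC1, rose by 0.16 (adjusted p = 0.0465, edgeR), a call lost whenever a KD or OE library or WT replicate 3 was left out. Of the other eIF4-named genes, Eif4enif1, the eIF4E transporter, fell by 0.45 in OE (adjusted p = 6.75e-08, edgeR). Its window on chromosome 11 had a median of -0.52, and less that median its value was 0.07. All 6 tested pathway genes on chromosome 4 rose in OE, and the part of the regional shift in them was not tested.

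**Figure D5:**
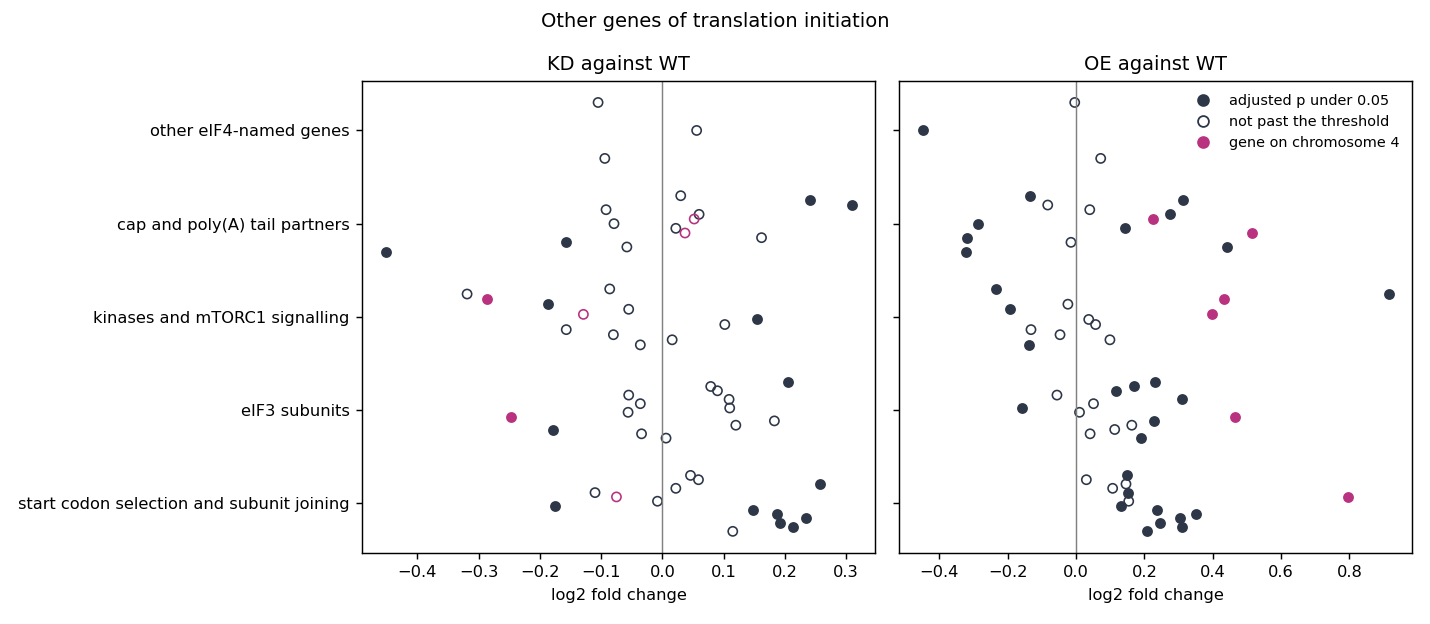
Log2 fold change (horizontal axes) of the 56 tested genes of initiation outside the 10 members, by list, in KD (left) and OE (right) against WT. Filled points passed an adjusted p of 0.05 (edgeR), open points did not, and magenta marks genes on chromosome 4; in OE the 6 magenta points all lie above 0.

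Total counts were 39491828 to 55745849 per library. Zbtb46 itself was at 13.7 ± 0.623 CPM in WT, 11.2 ± 0.537 in KD (17.8% lower) and 191 ± 2.67 in OE (log2 fold change 3.81). Ribosomal RNA took a share of the counts of 7.44% to 17.3% in WT, 9.55% to 12% in KD and 14.4% to 18.2% in OE. Of 13 endothelial marker genes 6 were tested. Pecam1, Cdh5, Tie1, Vwf, Erg, Emcn and Cldn5 were not, with Erg at 0 reads throughout, and the list summed to 147 to 160.0 CPM in WT, 124 to 131 in KD and 107 to 118 in OE. Most of that sum was Eng (125, 108 and 84.9 CPM on average), while Flt1 had 17.2, 12.1 and 21.9 CPM and was highest in OE. Fibroblast markers (6 genes) summed to 8090 to 8960 CPM in WT, 8040 to 8170 in KD and 5070 to 5190 in OE, while Lum had at most 2 reads. Nearly all of that sum was Col1a1 (5260, 4770 and 4030 CPM on average) and Col3a1 (3150, 3240 and 1050). Col1a2 had only 0.611, 0.506 and 0.227 CPM. Smooth muscle markers summed to 8.54 to 10.8, 4.04 to 4.65 and 2.73 to 3.51 CPM. Most of this was Acta2 (7.73, 2.8 and 1.76 on average), while Tagln had 0.436, 0.542 and 0.203. Leukocyte markers summed to 4.01 to 4.45, 5.18 to 5.62 and 3.16 to 4.5 CPM. Most of this was Cd68 (3.76, 4.86 and 3.4), and Ptprc, Adgre1 and Itgam had at most 2 reads per library. Cardiomyocyte markers summed to 0.773 to 1.03, 0.656 to 1.03 and 1.41 to 1.58 CPM. These few reads were mostly from Tnnt2 (0.59, 0.737 and 1.11 CPM on average) and Tnni3 (0.266, 0.0304 and 0.369), which was lowest in KD. The part of these differences in the values above was not tested.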

How the data were processed

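The authors deposited a table of whole-number counts per Ensembl gene for 9 libraries, not normalised, judged from its values. The build was GRCm38 (mm10) per the submitters' processing notes; the aligner, the counting program and the use of strand are not given in the sources used here. Of 55774 rows, 168 genes took 455 with identical counts and were counted once. Positions and lengths came from GENCODE M21.

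Genes were kept with filterByExpr, scaled with TMM and fitted in 1 edgeR 4.0.16 quasi-likelihood model of the group over all libraries (R 4.3.3), with Benjamini-Hochberg adjustment over 16955 genes and a threshold of 0.05. With 3 libraries against 3, exact permutation gives no two-sided p under 0.1. The SE came from the spread of log2 CPM (prior count 2). limma 3.58.1, DESeq2 1.42.0, Python 3.11.15, pandas 2.3.3, numpy 2.4.6, matplotlib 3.10.9 and Biopython 1.88 were also used. The fit was tested on simulated data.

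The members and lists were chosen with earlier results of these data known. Named genes were every member, up to 3 called genes per list and comparison with the largest change, the nearest tested gene on each side of Eif4g3 and the 2 largest called changes within 1 Mb of it in each comparison with WT, the 5 genes most like Eif4g3 (at least 5 CPM in a group, no predicted-gene symbol) and Zbtb46. A gene chosen this way is left out of the text. Alternatives were other scaling factors, filters and tools, a fit without the third group, a block for the replicate number, each library left out, window medians removed and another gene length. Counts over pathway genes outside chromosome 4 were added after seeing the data.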

Additional observations from a re-analysis of the deposited data

How the results depend on the processing

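Of 567 alternative values for the members' fold changes, 530 kept their side of the threshold, 26 lost the call and 11 gained it. Those among them with window medians removed reused the adjusted p of the main fit, so they could not lose or gain a call. No called value changed sign, while some values near 0 that were not called did. The Eif4g3 differences kept their calls under every alternative in which the gene was tested. With at least 10 counts required in every library, its KD counts of 5 and 7 left it out of the test. With library totals alone the calls of Eif4g1 in KD (0.07) and of Eif4g2 in KD (0.11) and OE (0.12) were lost, as were those of Eif4e and Eif4b in OE against KD (0.11 and 0.09). With window medians removed, 2 called values of named genes changed sign: Hp1bp3 in KD (0.0488) and Eif4enif1 in OE (0.0673). Of the 17 pathway genes called in KD, library totals left 7 (1 higher, 6 lower). In OE against KD, 27 were called, and 41 with upper-quartile factors, the higher share moving from 74.1% to 85.4%. Leaving out 1 library gave 2537 to 4699 genes called in KD, 5228 to 6440 in OE and 6072 to 7604 in OE against KD, and for the pathway 11 to 23, 28 to 36 and 21 to 34; the 11 came without KD replicate 3. The higher share of all calls was 51.4% in KD and 35.8% with library totals, 46.6% and 31.6% in OE, and in OE against KD 46.8% and 57.6% with upper-quartile factors. The cause of these changes was not tested. Deviations of same-numbered libraries from their group means had correlations of -0.0421 to 0.049. The labels tie these libraries by number only, and whether they shared a culture or a run is not given. With the replicate number as a block, 3574, 6111 and 6969 genes were called, and 14, 32 and 25 of the pathway. At 5 to 18 reads per KD library, the size of the Eif4g3 difference is limited by depth.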
